A study of Mus musculus with 6 samples.

Results

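The cytosolic ribosomal proteins are the protein subunits of the ribosome that translates nuclear-encoded mRNA outside mitochondria. Their genes were taken from the array annotation by name alone, as the numbered Rpl, Rplp and Rps genes together with Rpsa and Fau, keeping probes that were well above background on at least 3 arrays. This gave 79 genes out of 20996 genes with a kept probe, 46 of the large subunit and 33 of the small subunit, represented by 183 of 29318 kept probes. All 183 probes were well above background on all 6 arrays, so the filter removed none of them and no member lay near it. Of the 79 names, 77 were current RefSeq symbols and 2 matched through an older name (Rps3a, now Rps3a1, and Rps4y2, now Rps4l). RefSeq lists 78 of the genes as protein coding, and Rps4y2 as a transcribed pseudogene.

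Total RNA of mouse brain synaptosomes, the sealed nerve terminals released when brain tissue is homogenised, was hybridised to 6 one-colour Agilent arrays, 3 from the knock-in group (KI 1 to 3) and 3 from the wild-type group (WT 1 to 3). The title of the series concerns the untranslated 3′ end of the FMR1 mRNA as a target of microRNAs in the fragile X-associated tremor/ataxia syndrome (FXTAS). This is a disease of later life in people whose FMR1 carries a CGG repeat of premutation length, expanded but short of the full mutation. The sample names and the series design call the first group knock-in, whereas its genotype field reads knock-out, and the labels give neither the allele, the strain, the age nor a treatment. Whether each sample is another animal is not in the labels, so the p-values here reflect sample-to-sample spread that could be technical alone. The RNA amount entering the labelling is given as 0.2 µg for 5 samples and as 0.0 µg for KI 1, and the RNA integrity number as 10 for all 6.

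The arrays lay on 2 slides. Slide 1 held KI 1, KI 2, KI 3 and WT 3, and slide 2 held WT 1 and WT 2, so the comparison of all arrays is partly a comparison of slides. The 75th percentile of the processed signal was between 823 and 910 on slide 1 and between 578 and 580 on slide 2, and between 52.9% and 55.7% of spots were well above background. No spot was saturated, and any pair of arrays correlated at 0.981 to 0.994 over genes, which are no independent replicates. All 9 tested markers of neurons and synapses were above background on all 6 arrays, as were all 9 of oligodendrocytes, all 9 of astrocytes and all 9 of microglia, so RNA of neurons and of glia was measured in every sample.

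Ribosomal proteins are made in balanced amounts and assembled in the nucleolus with ribosomal RNA into a small subunit, which reads the mRNA, and a large subunit, which joins amino acids. Most of their mRNAs begin at the cap with a C followed by a run of pyrimidines, the 5′ terminal oligopyrimidine (TOP) tract, through which LARP1 and the mTOR kinase pathway switch their translation on and off together. Ribosomal protein mRNAs are abundant in dendrites and axons, and FMRP, the protein encoded by FMR1, binds mRNA and ribosomes and holds back translation near synapses. FXTAS carriers typically have raised FMR1 mRNA with normal or reduced FMRP.

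The TOP tract is the sequence feature for which these mRNAs are known, so 8 examples are shown. Each line gives 30 bases around the transcription start annotated by RefSeq on build GRCm38.p6, 15 before it and 15 from it. They are read along the transcribed strand, with the tract as counted in capitals. The capitals begin at a C no more than 5 bases from the start. A run of pyrimidines that reaches further upstream, as in Rpl7a, is therefore marked only in part.
Rps6, chr4:86857353-86857382 (minus strand): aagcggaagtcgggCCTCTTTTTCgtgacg
Fau, chr19:6057932-6057961 (plus strand): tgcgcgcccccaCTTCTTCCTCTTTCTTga
Rps15a, chr7:118116133-118116162 (minus strand): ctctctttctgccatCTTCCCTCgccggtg
Rpl38, chr11:114668565-114668594 (plus strand): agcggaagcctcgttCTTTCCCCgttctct
Rpl15, chr14:18270972-18271001 (minus strand): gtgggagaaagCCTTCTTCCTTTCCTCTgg
Rpl35, chr2:39005117-39005146 (minus strand): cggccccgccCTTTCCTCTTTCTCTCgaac
Rpl7a, chr2:26910792-26910821 (plus strand): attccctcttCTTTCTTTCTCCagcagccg
Rplp2, chr7:141447636-141447665 (plus strand): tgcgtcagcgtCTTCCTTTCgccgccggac
A tract was counted where a C followed by at least 4 further C or T letters began within 5 bases of the annotated start, on the transcribed strand only. The RefSeq promoter table held 58 of the 79 genes, and 28 of these (48.3%) had a tract, against 21.2% of the 27025 genes in the table. Counted by start site, 44.1% of 68 windows of the members and 18.3% of all 32851 windows had one. By subunit, the tract was present in 16 of 34 large-subunit and 12 of 24 small-subunit genes. A match of letters at an annotated start is a description and does not show where transcription begins in synaptosomes.

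No ribosomal protein gene passed the test between knock-in and wild type. In a limma fit over all 20996 genes with Benjamini-Hochberg adjustment, 0 of the 79 members had an adjusted p under 0.05, against 2 genes of the whole array (0.00953% of genes). Among the members described by name below, the smallest adjusted p was 0.492 (limma), for Rpsa. At an unadjusted p under 0.05 the count was again 0 members lower and 0 higher, against 6.4% of all genes lower and 4.46% higher in the knock-in arrays. The 95% confidence interval of the difference held 0 for each of the 79 genes. Taken over all of them these intervals ran from -0.853 to 0.514 on the log2 scale, with a median standard error (SE) of 0.12, so modest shifts of single genes in either direction were not detectable with 3 arrays a group. The smallest p that an exact permutation test of 3 against 3 arrays allows is 0.1.

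The sign of the difference leaned one way. Each difference is the knock-in mean minus the wild-type mean, in log2 units of the processed signal, with every array scaled to its own 75th percentile. The value was below 0 in 61 members and above 0 in 18, that is, lower in 77.2% of members, against 59.1% of all genes. The median over the members was -0.10, and over all genes -0.05. In 5 members all 3 knock-in arrays lay below all 3 wild-type arrays and in 0 members above, where 12.4% of all genes were separated in the lower direction and 7.86% in the higher. Those 5 of 79 are a smaller share than that of all genes. Because RNA was measured in bulk, less ribosomal protein mRNA in each nerve terminal and fewer terminals or fragments rich in it cannot be told apart.

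**Figure D1:**
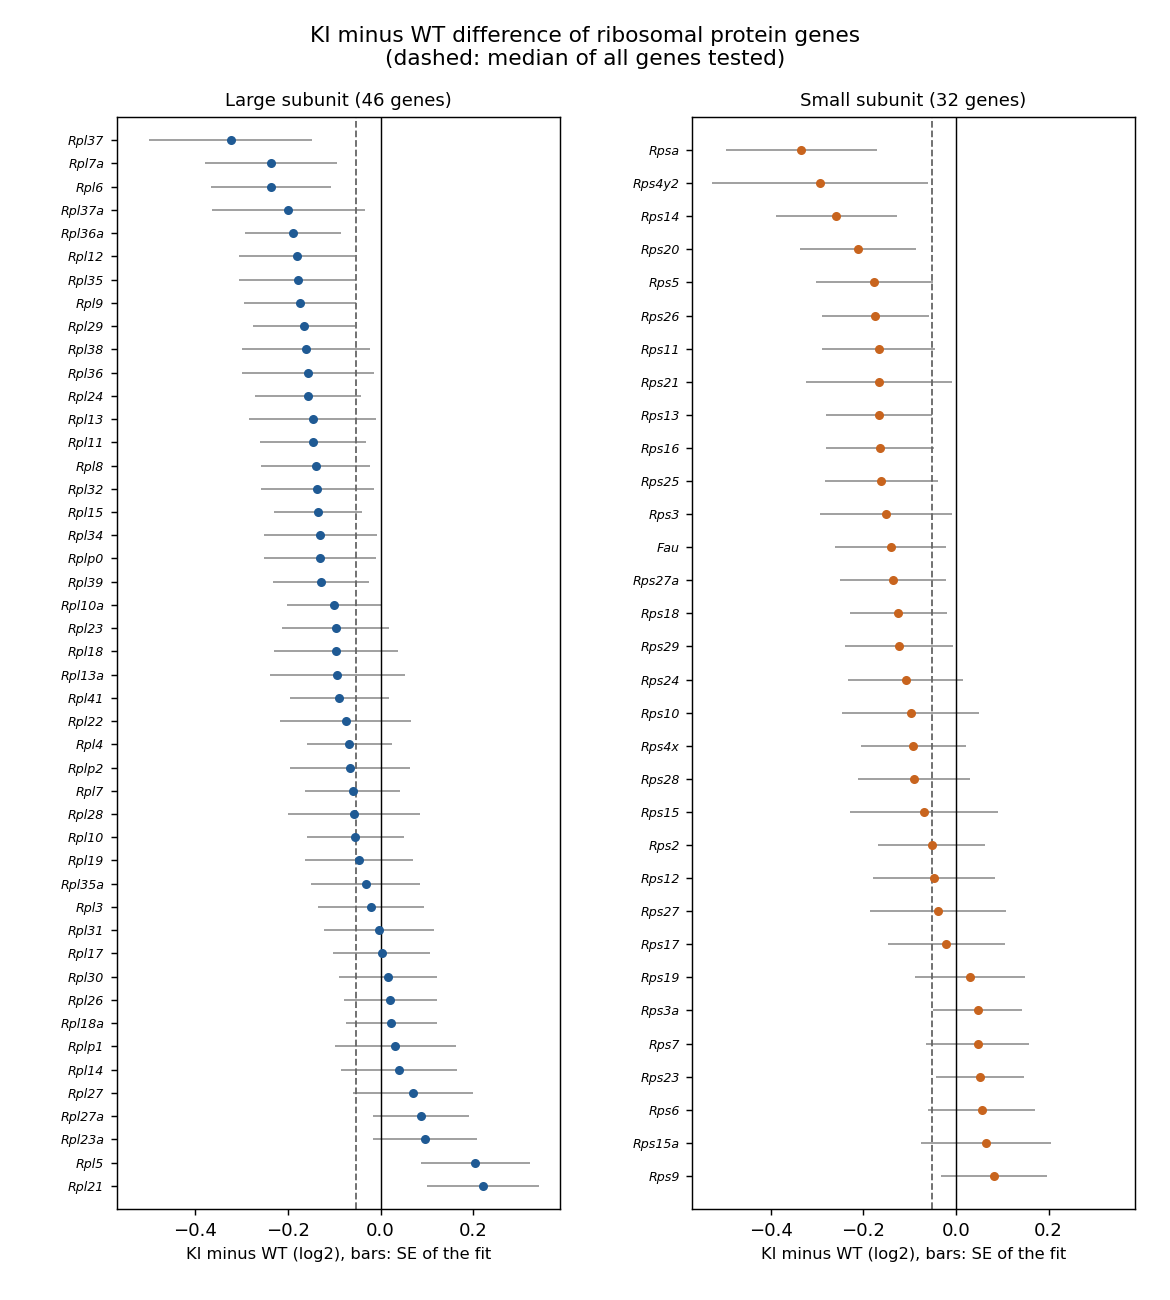
KI minus WT difference of 46 large-subunit (left) and 32 small-subunit genes (right) on the log2 scale, with bars for the moderated SE of the limma fit. The solid line is 0 and the dashed line the median of all genes tested (-0.05). Most points lie left of 0, from -0.33 for Rpsa to 0.22 for Rpl21, and none passed the test.

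Ribosomal protein genes are among the brightest on the array, and bright genes as a whole leaned the same way. When all genes were ranked by mean signal and split into 10 equal groups, 76 of the 79 members fell in the brightest group, which holds 2100 genes. Over that group the median difference was -0.10 and 79.5% of genes were lower in the knock-in arrays. In the 76 members of that group the median was -0.10 too, with 59 of 76 lower. Of the 3 members outside it, Rpl5 and Rps21 were in the next group down and Rps4y2 lower still.

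**Figure D2:**
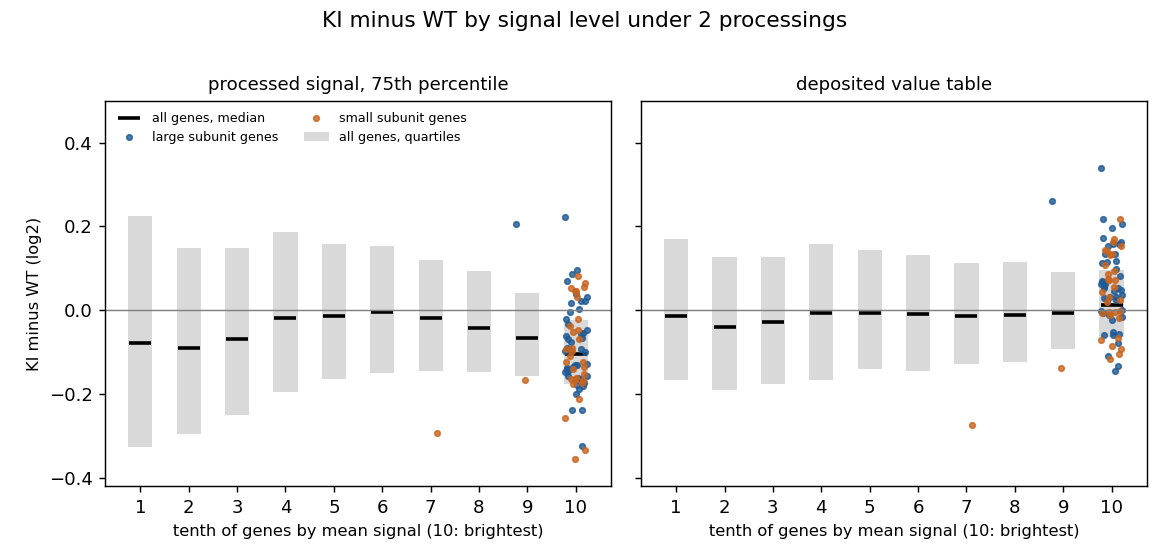
KI minus WT difference (log2) in 10 equal groups of genes ranked by mean signal (group 10 is the brightest), for the processed signal scaled to the 75th percentile (left) and for the deposited value table (right). Grey bars span the quartiles of all genes, black dashes are their medians, and dots are the ribosomal protein genes. In group 10 the median of all genes is -0.10 on the left and 0.01 on the right. The median of the 76 ribosomal protein genes in that group is -0.10 on the left and 0.05 on the right.

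Array by array, the members moved together, and the arrays of a group differed more among themselves than the group means did. The mean over the 79 genes of the log2 value minus each gene's own mean was -0.02, 0.04 and -0.16 in KI 1, 2 and 3, and 0.07, 0.16 and -0.09 in WT 1, 2 and 3. KI 3 and WT 3 were the low arrays and WT 2 the high one, and the groups overlapped. The group means were -0.05 ± 0.10 (SD, n = 3) for knock-in and 0.05 ± 0.12 (SD, n = 3) for wild type. KI 3 held the lowest of the 6 values in 64 of the 79 members, where it did so in 11.9% of all genes, and WT 2 held the highest in 50 of 79, where it did so in 38.4% of all genes. Within the knock-in group KI 3 was lowest in 75 of 79 members, against 33.2% of all genes and 44% of the brightest group.

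Slide moved with the result. Both slide 2 wild-type arrays lay above WT 3 in 64 of 79 members (81%), against 32.5% of all genes and 44% of the brightest group, and the mean of WT 1 and WT 2 exceeded WT 3 by 0.20 over the members. Within slide 1, where the only wild-type array is WT 3, the mean difference of the members turned to 0.04, with 53 members higher and 26 lower. The smallest adjusted p of a member with slide as a block was 0.974 (limma). In that comparison the median of all genes stayed below 0, at -0.03. KI 1 and KI 2 both exceeded WT 3 in 59 members, while all 3 knock-in arrays did so in 8 members (10.1%), against 26% of all genes. The part of the slide in the difference between groups cannot be told apart from that of the 2 wild-type samples on slide 2.

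**Figure D3:**
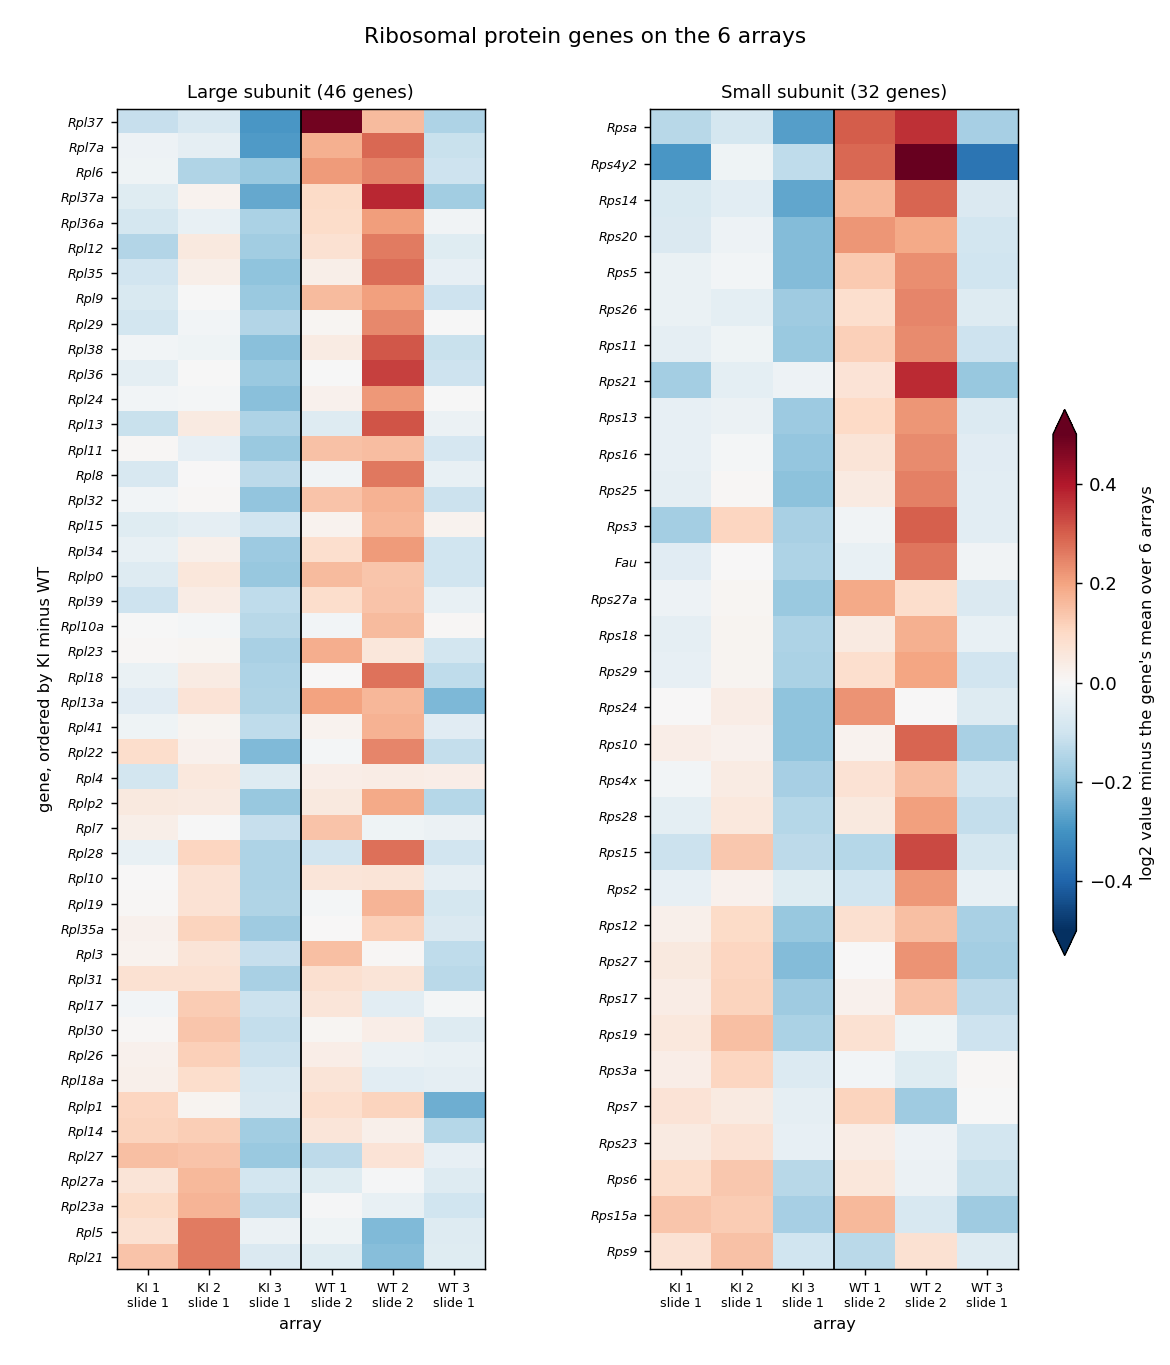
Heat map of 46 large-subunit (left) and 32 small-subunit genes (right) on the 6 arrays, coloured by the log2 value minus the gene's mean over all arrays and ordered by KI minus WT. KI 3 is blue for most genes (lowest of 6 arrays in 64 of 79), WT 2 red (highest in 50 of 79), and WT 3, which shares slide 1 with the knock-in arrays, is mostly blue.

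Large and small subunits were close to each other. The median difference was -0.09 over the 46 large-subunit genes, 35 of them lower, and -0.12 over the 33 small-subunit genes, 26 of them lower. Within each array, the mean log2 value of the large-subunit genes minus that of the small-subunit genes was 0.24, 0.24 and 0.23 in KI 1, 2 and 3, and 0.21, 0.18 and 0.24 in WT 1, 2 and 3. The offset itself depends on the probes and has no meaning as a ratio of subunits, and only its change between arrays is read here. It averaged 0.24 ± 0.01 (SD, n = 3) in knock-in and 0.21 ± 0.03 (SD, n = 3) in wild type, a gap of 0.03. WT 3 lay among the knock-in arrays of its slide, and with slide as a block the gap was -0.01. The 4 arrays of slide 1 lay between 0.23 and 0.24, and the 2 of slide 2 between 0.18 and 0.21.

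Low differences among the small-subunit genes were those of Rpsa, Rps4y2, Rps14 and Rps20. Rpsa, also known as the laminin receptor, had values of 7.51, 7.56 and 7.38 above the 75th percentile in the knock-in arrays and of 7.95, 8.02 and 7.49 in the wild-type arrays (probe on chr9:120040617-120040676, mouse build mm9). Its 2 slide 2 arrays stood above the other 4, among which the groups overlapped, and its difference of -0.33 (SE 0.16, 95% interval -0.73 to 0.06), a ratio of 0.793, became -0.00 against WT 3 alone.

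Rps14, the gene whose loss causes the anaemia of the human 5q deletion syndrome, read 8.35, 8.38 and 8.17 in knock-in against 8.60, 8.72 and 8.35 in wild type, a difference of -0.26 (SE 0.13). For Rps20 the values were 7.48, 7.53 and 7.33 against 7.77, 7.74 and 7.46, a difference of -0.21 (SE 0.12). Both show the same arrangement, with WT 1 and WT 2 above the 4 arrays of slide 1. The pseudogene Rps4y2 had the lowest signal of the 79, with 0.86, 1.13 and 1.02 in the knock-in arrays against 1.44, 1.66 and 0.78 in the wild-type arrays, and the largest SE (0.23). Its WT 3 value was the lowest of the 6, so the sign depended on the slide 2 arrays.

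At the other end of the small subunit were Rps9, Rps15a, Rps6, Rps23 and Rps7, with differences of 0.08, 0.06, 0.06, 0.05 and 0.05. Rps6 is the substrate of the S6 kinases and a common readout of mTOR activity in neurons, through its phosphorylation rather than its mRNA. It read 6.83, 6.88 and 6.60 in KI 1, 2 and 3 and 6.80, 6.71 and 6.63 in WT 1, 2 and 3 (chr4:86500748-86500807, mm9). The groups overlapped fully, and the difference of 0.06 had a 95% interval from -0.22 to 0.33. For Rps23, a protein of the decoding centre, the values were 7.04, 7.07 and 6.96 against 7.03, 6.97 and 6.91. Rps19, the gene most often mutated in Diamond-Blackfan anaemia, had a difference of 0.03 (SE 0.12), and Fau, which encodes a ubiquitin-like protein fused to a small-subunit protein, of -0.14 (SE 0.12). The X-linked Rps4x had -0.09 (SE 0.11).

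The large-subunit genes with the lowest differences were Rpl37, Rpl7a, Rpl6, Rpl37a and Rpl36a. Rpl37 read 8.23, 8.26 and 8.05 in knock-in against 8.83, 8.50 and 8.19 in wild type (chr15:5068594-5068654, mm9). WT 1 was the high array here, unlike most members, and the difference of -0.32 (SE 0.18) had a 95% interval from -0.75 to 0.10. Rpl6 read 6.87, 6.74 and 6.70 against 7.10, 7.13 and 6.78, a difference of -0.24 (SE 0.13). In Rpl36a, an X-linked gene, 4.68, 4.73 and 4.61 lay below 4.86, 4.98 and 4.76, so that the groups did not overlap, with a difference of -0.19 (SE 0.10) and an adjusted p of 0.511 (limma). Rpl29, Rpl24 and Rpl15 were the other large-subunit genes without overlap, at -0.16, -0.16 and -0.13.

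Rpl21 and Rpl5 stood apart at the upper end. Rpl21 read 6.38, 6.50 and 6.17 in knock-in against 6.18, 6.03 and 6.18 in wild type (chr5:147646040-147646581, mm9), with KI 1 and KI 2 above every wild-type array and KI 3 among them. Its difference was 0.22 (SE 0.12, 95% interval -0.07 to 0.51), and it was 0.17 against WT 3 alone. Rpl5 read 4.56, 4.75 and 4.46 against 4.47, 4.27 and 4.43, a difference of 0.20 (SE 0.12) and of 0.17 against WT 3 alone. They were 2 of the 3 members in which WT 2 was the lowest array. Rpl5 and Rpl11 bind the 5S ribosomal RNA and, when free, restrain Mdm2 and so raise p53. Rpl11 had a difference of -0.15 (SE 0.11), opposite in sign to its partner, and neither passed the test. Rpl23a, a contact of the signal recognition particle at the exit of the peptide tunnel, Rpl27a and Rpl27 followed at 0.10, 0.09 and 0.07.

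Proteins of the stalk, the arm of the large subunit that recruits elongation factors, had small differences of both signs. Rpl12, at the stalk base, read 6.94, 7.13 and 6.91 in knock-in against 7.16, 7.34 and 7.02 in wild type, a difference of -0.18 (SE 0.13). Rplp0 had -0.13 (SE 0.12), Rplp2 -0.07 (SE 0.13) and Rplp1 0.03 (SE 0.13). Rplp1 was the only one of the 4 with a lower value in WT 3 (7.60) than in any knock-in array (7.95, 7.86 and 7.77). Among the X-linked large-subunit genes, Rpl10, which joins the subunit late in assembly, had -0.05 (SE 0.10) and Rpl39, a protein lining the exit tunnel, -0.13 (SE 0.10). Rpl38, a protein that mouse mutants link to the translation of Hox mRNAs, had -0.16 (SE 0.14), Rpl22 -0.08 (SE 0.14) and Rpl17 0.00 (SE 0.10).

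A tract counted at an annotated start did not divide the members by their difference. The median was -0.09 over the 28 genes with a tract, 22 of them lower, and -0.10 over the 30 genes without one, 24 of them lower. Most of these mRNAs are known to begin with a tract, so genes without a counted one may still carry it. The split therefore cannot show whether mRNAs with a tract differ from those without.

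The choice of probe mattered for a few genes. Of the 79 genes, 21 had 1 kept probe and 58 had several, up to 7 for Rpl17. In 33 of those 58 every probe was lower in the knock-in arrays, in 8 every probe was higher and in 17 the signs were mixed. The median range of the difference over the probes of a gene was 0.10. Fitted probe by probe over all 29318 kept probes, 133 of the 183 probes were lower and 50 higher, and 0 passed, against 2 of all probes (0.00682%). At an unadjusted p under 0.05 there were 0 member probes lower and 2 higher, against 6.13% and 4.29% of all probes. In 12 probes all knock-in arrays lay below all wild-type arrays and in 2 above, against 12% and 7.93% of all probes.

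The widest spread belonged to Rps15a, Rpsa and Rpl7a. The brightest Rps15a probe (chr7:125253453-125253512, mm9) gave a difference of 0.06, and a second probe 0.10. The third, which the file places at base 4642 of the transcript (chr7:125248322-125248381, mm9), read 0.07, 0.01 and -0.10 in knock-in against -0.93, -1.08 and -0.36 in wild type. Its groups did not overlap, and its difference of 0.78 (SE 0.20) had an unadjusted p of 0.00675 and an adjusted p of 0.438 (limma). What transcript end this probe reports was not annotated here. The other member probe with an unadjusted p under 0.05 was the dimmer of the Rpl27 probes, with a difference of 0.30 (SE 0.12) and an unadjusted p of 0.0391 (limma), where the brighter gave 0.07. For Rpsa the 4 probes gave -0.33, -0.17, 0.11 and -0.06 from the brightest to the dimmest.

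Some probes of one gene differ in only a few letters, so they can report related transcripts such as processed pseudogenes, of which ribosomal protein genes have many. The clearest pair belongs to Rpl7a, whose file entry gives both probes the same position (chr2:26768759-26768818, mm9). They differ in 6 of 60 bases, all of them inside bases 23 to 52, shown here with the differing letters in capitals.
Rpl7a, brightest probe: tTgGgttaaatgtaTGctGaattttctgtA
Rpl7a, dimmest probe: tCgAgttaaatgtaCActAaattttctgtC
The first read 5.69, 5.68 and 5.44 in knock-in against 5.90, 6.01 and 5.61 in wild type, a difference of -0.24 (SE 0.15 in the fit over probes). The second read 3.06, 3.18 and 3.15 against 3.45, 3.58 and 3.22, without overlap, a difference of -0.29 (SE 0.13). Both probes were lower in knock-in, although their letters differ. A further Rpl7a probe nearer the transcript's start gave 0.13. Rpl36 has another pair with 6 differing bases when letters are compared in order without gaps, and differences of -0.16 and -0.18. The file gives these probes different starts (chr17:56753615-56753674 and chr17:56753612-56753674, mm9). Both probes end at the same base and read alike after their differing letters, so a shifted start alone does not give these differences. Whether the letters are substitutions, as in Rpl7a, was not tested.
For 11 probes of 5 genes (Rpl13, Rpl36, Rps27, Rps29 and Rps4x) the file gives a chromosome other than that of the RefSeq gene. Their differences ran from -0.17 to 0.05, with 10 of 11 lower. For Rps27 and Rps29 the brightest probe, which represents the gene, is among them (placed on chr9 and chr2, against RefSeq chromosomes 3 and 12). Only chromosomes were compared, so a probe placed elsewhere on the same chromosome was not counted. One such case is Rps2, with its brightest probe at chr17:42864841-42864900 (mm9) and an annotated start within chr17:24720048-24720077 (GRCm38.p6).

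**Figure D4:**
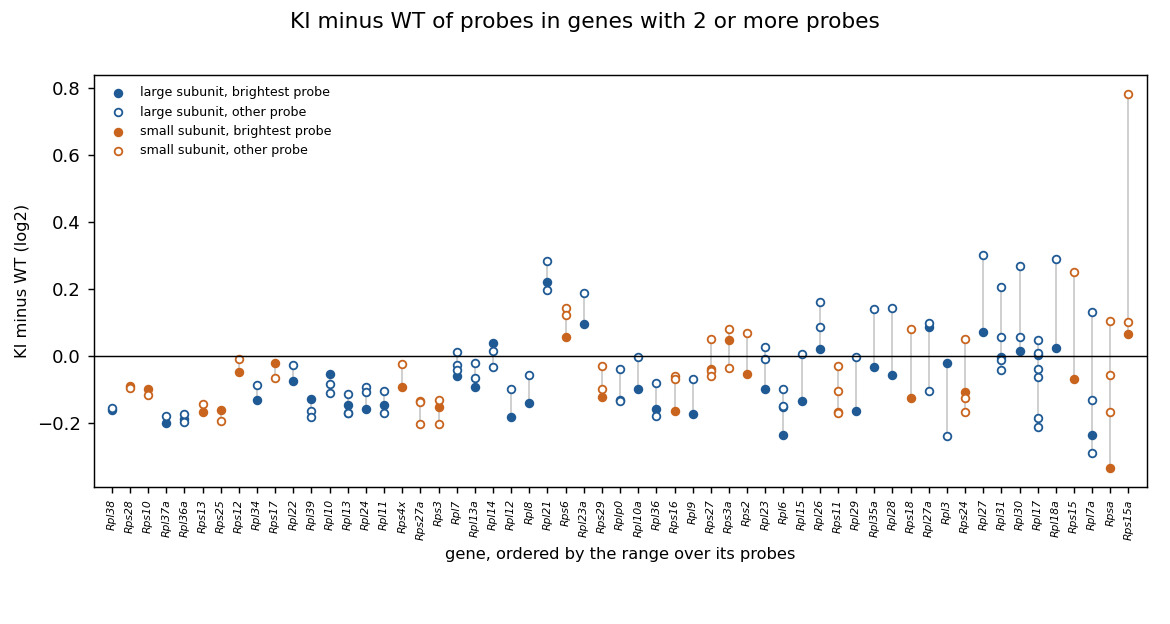
KI minus WT difference (log2) of the kept probes of 57 genes with several probes, ordered by the range within a gene; filled points are the brightest probe, which represents the gene, and open points the others. Most genes span little (median range 0.10), and the distal Rps15a probe stands alone at 0.78.

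Across the 183 probes brighter ones tended to have lower differences (Pearson r = -0.32, Spearman rho = -0.33, given as a description over probes that share the 6 arrays and, in part, their gene), while the GC content of the probe was hardly related to it (r = 0.09). Only 10 probes, of 9 genes, lay below the 75th percentile of signal, with differences from -0.19 to 0.78, and 4 of them were higher.

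The deposited value table gave the members the opposite sign. Its columns are log2 values that rank the spots of each array as the raw median signal does, to the decimals given (Spearman 1.0000 for each of the 6). The medians of the columns lie between 6.55 and 6.56. The step by which the authors brought the columns to a common level is not stated in the labels or headers. Here 52 members were higher and 27 lower in knock-in (34.2% lower), with a median of 0.05. Over all genes 52% were lower and the median was -0.01. In the brightest group 45.5% of all genes were lower, with a median of 0.01, against 25 of its 76 members, with a median of 0.05. Compared with the processed signal 34 members changed sign, all of them from lower to higher, and every member moved upwards, by 0.02 to 0.26. The order of the genes was largely kept, with a Pearson r of 0.869 between both sets of differences, which come from the same arrays.

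In the value table too, 0 of 79 members passed, against 0% of all genes. At an unadjusted p under 0.05 the table had 0 members lower (5.39% of all genes) and 1 higher (5.53% of all genes), which was Rpl21. In 1 member, Rpl36a, all knock-in arrays lay below all wild-type arrays (9.61% of all genes), and in 4 members, Rpl41, Rpl26, Rplp1 and Rpl21, above (9.31% of all genes). Rpl21 read 16.01, 16.11 and 15.80 in the table's knock-in columns and 15.72, 15.43 and 15.75 in its wild-type columns, a difference of 0.34 (SE 0.13) with an adjusted p of 0.429 (limma). Rpl41, which encodes a very short basic protein, read at least 17.94 in each knock-in column against 17.61, 17.91 and 17.90 in the wild-type columns, and its difference was 0.17 in the table and -0.09 from the processed signal.

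The sign of the list changed with the scaling. With the raw median signal scaled to the 75th percentile the mean over the members was -0.07, with 59 of 79 lower, close to the -0.09 of the processed signal. Quantile normalization of the same raw signal gave 0.02 and 36 of 79 lower, and of the processed signal 0.02 and 35 of 79. With normexp background correction it was -0.06 and 57 of 79. The brightest group of genes moved with the scaling as well, from a median of -0.10 in the processed signal to -0.01 after quantile normalization of the raw signal and 0.01 in the value table. Quantile normalization gives every array the same distribution of values, so a median near 0 in that group is largely set by the method. In every one of these settings 0 members passed, and KI 3 and WT 3 were the lowest arrays of their groups. The direction of the list between the groups thus differed with the scaling.

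**Figure D5:**
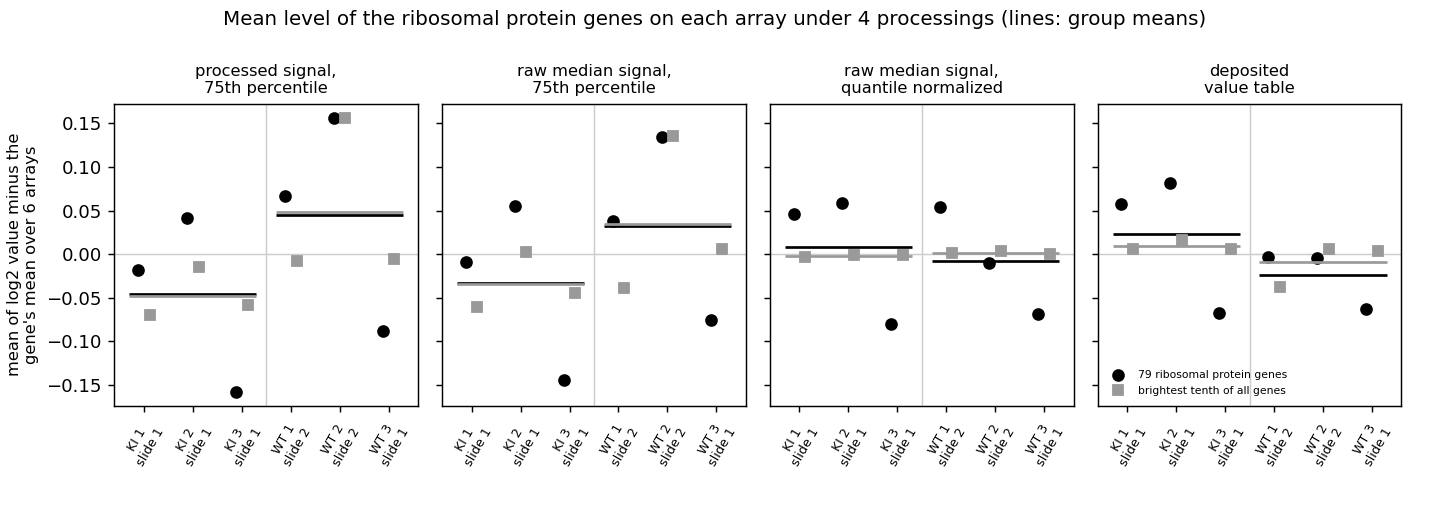
Mean over the 79 ribosomal protein genes (black) and over the 2100 brightest genes (grey) of the log2 value minus each gene's mean over 6 arrays, per array, under 4 processings; horizontal lines are group means of 3 arrays. KI 3 and WT 3 are the low black points in each panel, and the knock-in mean passes from below the wild-type mean on the left to above it on the right.

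Genes around the ribosomal proteins were read from lists of names. Other TOP transcripts, which encode translation factors and share the tract, had 14 of 20 tested genes lower, a median of -0.05 and 0 past the test. Rps27a is a member of both this list and the ribosomal proteins. Eef1g, a subunit of the elongation factor that loads tRNA, read 6.21, 6.26 and 6.17 in knock-in against 6.54, 6.69 and 6.29 in wild type, a difference of -0.29 (SE 0.13), with no overlap. WT 3, the wild-type array of slide 1, was the one nearest to the knock-in arrays. Eef2, the translocation factor, had -0.24 (SE 0.13) and Eif3e, a subunit of an initiation factor, 0.38 (SE 0.23).

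Regulators of TOP translation had 10 of 17 lower, a median of -0.08 and 0 past the test. Eif4ebp2, the main 4E-BP of neurons and a brake on cap-dependent initiation, read 2.78, 2.90 and 2.97 in knock-in against 2.36, 2.20 and 2.55 in wild type. All knock-in arrays were above WT 3 on the same slide as well as above WT 1 and WT 2, with a difference of 0.51 (SE 0.13), an unadjusted p of 0.00564 and an adjusted p of 0.395 (limma). Eif4ebp1 had -0.34 (SE 0.18), Tial1 -0.30 (SE 0.15) and Rheb, the activator of mTOR, -0.18 (SE 0.10). Larp1 itself had 0.04.

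Ribosome assembly factors had 24 of 40 lower, a median of -0.03 and 0 past the test, with 4 higher and 0 lower at an unadjusted p under 0.05, against 4.46% and 6.4% of all genes. These were Utp14b, Rrp1b, Nob1 and Polr1b. Utp14b, a processing factor of the small subunit that arose as a retrogene, read -3.25, -3.17 and -3.42 in knock-in against -4.83, -4.42 and -4.65 in wild type, a difference of 1.35 (SE 0.14), with an unadjusted p of 4.2e-05 and an adjusted p of 0.12 (limma). It was dim, and above background on 5 of 6 arrays. Rrp1b had 0.47 (SE 0.12), Nob1, the nuclease of small-subunit maturation, 0.45 (SE 0.17) and Polr1b, a subunit of RNA polymerase I, 0.23 (SE 0.09).

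The mitochondrial ribosome is a separate set of proteins from nuclear genes. Of its 76 tested genes 54 were lower, the median was -0.07, and 0 passed. In 15 of 76 (Mrps10, Mrpl39 and Mrpl45 among them) all knock-in arrays lay below all wild-type arrays, and in 2, Mrpl42 among them, above, against 12.4% and 7.86% of all genes. Mrps10 had -0.27 (SE 0.12) and Mrpl42 0.32 (SE 0.14). Averaged over its genes, the list was at -0.02, -0.05 and -0.04 in KI 1, 2 and 3 and at -0.05, 0.12 and 0.04 in WT 1, 2 and 3, so that KI 3 did not stand apart as it did in the cytosolic list. The low KI 3 was not particular to the cytosolic list. Other TOP transcripts were at -0.02, 0.05 and -0.11 in KI 1, 2 and 3 and at 0.06, 0.05 and -0.04 in WT 1, 2 and 3, with KI 3 the lowest array. A list of paralogs held 6 tested genes, 1 of them the member Rps4y2, and 4 of the 6 were lower, with a median of -0.14. Rps27l, a paralog of Rps27 induced by p53, read 3.09, 3.01 and 2.86 against 2.71, 2.82 and 2.63, a difference of 0.27 (SE 0.11) with an unadjusted p of 0.0483 (limma) and no overlap. Rpl22l1 had -0.24 (SE 0.12).

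Markers of brain regions and cell types also differed between the arrays. The mean level of 11 striatal markers, relative to each gene's mean, was 2.00, 0.49 and -0.99 in KI 1, 2 and 3 and 1.43, -1.47 and -1.47 in WT 1, 2 and 3, all 11 higher in knock-in and 0 past the test. For 6 tested choroid plexus markers the means were 0.73, 0.70 and -0.59 against 1.08, -0.96 and -0.96, with 5 genes higher in knock-in and 1 lower. Only 3 of these 6 genes and 9 of the 11 striatal markers were above background on all 6 arrays. Dim genes therefore weigh on both means, and single choroid plexus genes did not all follow theirs. By these means KI 3 was the lowest knock-in array in both lists, as in the ribosomal proteins. This was not particular to them. KI 3 was also the lowest knock-in array for oligodendrocyte, astrocyte, microglia, endothelial and mural, nuclear-retained and erythrocyte lists. For neuron and synapse markers KI 3 was instead the highest knock-in array, at 0.07. WT 2, the highest array for the ribosomal proteins, was among the lowest in the striatal and choroid plexus lists. Oligodendrocyte markers ran from -0.09 to 0.33 in knock-in and from -0.42 to 0.18 in wild type, astrocyte markers from -0.01 to 0.07 and from -0.09 to 0.05, and microglia markers from -0.01 to 0.10 and from -0.08 to 0.02. Endothelial and mural markers ran from -0.38 to 0.19 in knock-in and from 0.01 to 0.09 in wild type, nuclear-retained RNAs from -0.16 to 0.22 and from -0.26 to 0.18, erythrocyte markers from -0.10 to 0.71 and from -0.43 to -0.02, and neuron and synapse markers from -0.15 to 0.07 and from -0.12 to 0.11. The part of these markers in the differences of the ribosomal protein genes was not tested.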

How the data were processed

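Per the file headers, Agilent Feature Extraction 10.7.3.1 measured the scans, and the authors deposited for each spot linear intensities, raw and processed (background-subtracted and detrended, not normalized between arrays), annotated on mouse build mm9. A table of log2 values was deposited by the authors as well. Labels give Cy3 labelling after low-input amplification. Here log2 processed intensity minus each array's 75th percentile over 59305 non-control spots was used, without a pseudocount. Outlier spots were left out unless all spots of a probe were outliers, and spots of one probe were averaged. Each gene, under the file's name, was its brightest probe above background on at least 3 of 6 arrays. Groups (3 against 3) were fitted with limma 3.58.1 in R 4.3.3, two-sided, with Benjamini-Hochberg adjustment at 0.05 and no block. The number of arrays limits the precision. The fit was tested on simulated data. Named genes are the 5 highest and 5 lowest differences of each subunit, stalk, 5S-binding, X-linked and selected members, the 3 genes with the widest probe spread, and up to 4 genes of smallest p per other list. A ribosomal protein gene and a gene of another list are not reported here by name, while counts and medians include them. Members and lists were chosen with earlier results of these data known. Lists are described by counts and medians, without a test. RefSeq names and starts are of GRCm38.p6. Alternatives covered background, signal, scaling, filter, probe summary, slide, replicate number, the value table and leaving out arrays.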

Additional observations from a re-analysis of the deposited data

How the results depend on the processing

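Whether any ribosomal protein gene passed did not depend on the settings tried. The count was 0 under every alternative fitted, and the smallest adjusted p (limma) of a member over all of them was 0.254, without WT replicate 3. Among the 33 named genes, 580 of 627 combinations of gene and setting kept the sign and 47 did not, and 18 genes kept it throughout. The mean difference of the members, -0.09 as reported, reversed to 0.0162 with the raw median signal quantile normalized, 0.018 with quantile normalization of the processed signal, 0.0427 with slide as a fixed block and 0.047 in the deposited value table. Leaving out 1 array at a time or, as chosen after seeing the data, KI replicate 3 and WT replicate 2 together gave -0.157 to 0.0217, the last without those 2 arrays, and without Rps4y2 it was -0.0877. It moved by over 1.5 times without WT replicate 3 (-0.157), KI replicate 3 (-0.0339) or WT replicate 2 (-0.0347), with normexp (-0.0556) and with every probe on its own (-0.0569). The gap between subunits, 0.03 as reported, reversed to -0.00519 with slide as a fixed block. The causes were not tested beyond these settings.

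The number of genes called over the whole array, 2 as reported, was 1 with normexp and with the raw median signal scaled to the 75th percentile, 0 with that signal quantile normalized, with no filter on dim probes, with a filter on all 6 arrays and in the value table, 5 with the mean of all probes and with slide as a random block (consensus correlation -0.02), and 7 with slide as a fixed block. Leaving out arrays gave 0 to 3. With the replicate block, the replicate number of the labels as a factor, 0 genes were called, the mean difference was -0.0903 and the smallest adjusted p of a member was 0.432 (limma). Same-numbered samples had correlations of their deviations of 0.398, -0.0239 and 0.252, 1 of the 3 below 0, so the number was not taken as a pairing, and whether it marks a shared preparation was not tested. All member probes were well above background on all 6 arrays, and with 3 arrays a group the median SE of a member was 0.12.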
